A study of Mus musculus with 16 samples.

Results

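The data concern 9 long noncoding RNA genes that are prominent in brain: *Meg3*, *Rian*, *Mirg*, *Malat1*, *Neat1*, *Miat*, *Snhg11*, *Gas5* and *Kcnq1ot1*. They were chosen by name from the 48397 gene symbols of the count files, and all 9 had counts in every library and were among the 17038 genes tested. The study asks how lipoproteins of the human apoE isoforms affect maturing hippocampal neurons. Wild type primary hippocampal neurons from P0 to P2 pups of CD1 mice were treated on 10 and 13 days in vitro (DIV) and harvested at 17 DIV. Control neurons received conditioned medium of immortalized *Apoe*-/- astrocytes, which holds no apoE. The other groups received medium of immortalized astrocytes homozygous for human *APOE* ε2, ε3 or ε4 (apoE2, apoE3 and apoE4 lipoproteins). Medium was concentrated 10-fold before use in all 4 groups, and all cultures had cytosine arabinoside on 3 DIV against dividing cells. Each group has 4 libraries, numbered 1 to 4, made from RNA depleted of ribosomal RNA. The libraries of a group are described as coming from independent neuronal cultures, and what the shared numbers stand for is not stated.

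Long noncoding RNAs act without being translated, as scaffolds of nuclear bodies, as silencers of neighbouring genes, or as carriers of smaller RNAs that are cut from them. *Meg3*, *Rian* and *Mirg* are made from the maternal chromosome of the imprinted *Dlk1-Dio3* domain, and *Kcnq1ot1* from the paternal chromosome of the imprinted *Kcnq1* domain. *Malat1* RNA gathers in nuclear speckles, *Neat1* builds paraspeckles, and *Miat* (also called Gomafu) forms its own neuronal nuclear domain. *Snhg11* and *Gas5* carry small nucleolar RNAs (snoRNAs) in their introns, and *Gas5* RNA is a known target of nonsense-mediated decay.

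All positions are on mm10. *Meg3* (chr12:109541001-109571726), *Rian* (chr12:109603940-109661716) and *Mirg* (chr12:109729764-109749460) follow each other on the plus strand within 208460 bases, and *Rtl1* lies on the minus strand between the first and the next. *Malat1* (chr19:5795690-5802672) and *Neat1* (chr19:5824708-5845478) are on the minus strand and have 1 exon each, as has *Kcnq1ot1* (chr7:143203458-143296549, minus strand), which lies wholly inside the span of *Kcnq1* on the plus strand. *Miat* is at chr5:112213228-112229395 (minus), *Snhg11* at chr2:158375638-158386145 (plus) and *Gas5* at chr1:161034422-161038539 (plus).

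Depth ranged from 14087723 to 34248172 counts on genes, with a median of 22221832, and the 9 RNAs together took 0.198 to 0.621% of them. HTSeq's rows for reads on no single gene held 38.4 to 73.7% of a library, and *Lars2* alone, a gene that overlaps repeat sequence of ribosomal origin, had between 0.359 and 15% of what was left. Of the 13 neuron markers listed none was without counts in any group, and their summed level was 3642 to 8970.4 CPM (counts scaled by TMM library sizes). The 8 astrocyte markers summed to 1153 to 5584 CPM, so the cultures held glial RNA beside neuronal RNA. In RNA from whole cultures, fewer cells of a type and less RNA per cell cannot be told apart.

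The sequences below show features by which these RNAs are recognised. *Miat* RNA repeats the letters ACTAAC, the branch point sequence of introns that the splicing factor SF1 binds. Its longest annotated transcript holds ACTAAC 11 times and TACTAAC, which contains it, 6 times, or 1.2 ACTAAC per kb against 0 to 0.391 per kb in the other 8 RNAs. These stretches are from the GENCODE M21 transcript, minus strand of mm10, chr5:112217307-112217385 and chr5:112216750-112216813, both in an exon, with ACTAAC in capitals.
Miat stretch 1: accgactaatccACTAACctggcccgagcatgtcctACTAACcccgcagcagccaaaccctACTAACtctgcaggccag
Miat stretch 2: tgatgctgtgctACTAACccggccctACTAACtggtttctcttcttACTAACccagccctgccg

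*Malat1* and *Neat1* lie beside each other on chromosome 19, with 22035 bases between them, and neither needs a poly(A) tail at its mature end. There, U-rich motifs pair with an A-rich tract into a triple helix, upstream of a tRNA-like structure that is cut off. The letters TTTGCTTTT and AAAAGCAAA, in capitals, were both present within the last 400 bases of these transcripts and of no other among 25734 annotated lncRNA transcripts searched on the sense strand, which makes 2 in all or 0.00777%. The stretches are on the minus strand of mm10, at chr19:5795977-5796066 and chr19:5824708-5824799.
Malat1 end: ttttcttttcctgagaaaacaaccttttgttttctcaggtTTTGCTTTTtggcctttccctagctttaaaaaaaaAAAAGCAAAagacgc
Neat1 end: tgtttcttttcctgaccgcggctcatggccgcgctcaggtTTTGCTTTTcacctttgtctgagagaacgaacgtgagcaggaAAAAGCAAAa

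Promoters are shown for 3 genes that differed in how they moved: *Meg3* and *Kcnq1ot1*, which fell together with apoE3 in a paired fit described below, and *Gas5*, which was the steadiest of the 9. RefSeq gives 2 starts each for *Meg3* and *Gas5*. For *Gas5* the internal start is shown, which lies inside the gene's span given above, and for *Meg3* the first. The stretches are from GRCm38.p6, at chr12:109540886-109541015 (plus strand), chr1:161035106-161035195 (plus) and chr7:143296598-143296747 (minus). Capitals mark TGACGTCA (the cAMP response element), TATAAA and the CTTTC at the *Gas5* start, and CCAAT in *Kcnq1ot1*.
Meg3: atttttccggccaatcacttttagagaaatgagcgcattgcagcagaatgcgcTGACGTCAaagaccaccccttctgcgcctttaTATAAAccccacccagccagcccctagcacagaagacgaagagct
Gas5: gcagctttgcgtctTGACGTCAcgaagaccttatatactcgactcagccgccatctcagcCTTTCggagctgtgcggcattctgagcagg
Kcnq1ot1: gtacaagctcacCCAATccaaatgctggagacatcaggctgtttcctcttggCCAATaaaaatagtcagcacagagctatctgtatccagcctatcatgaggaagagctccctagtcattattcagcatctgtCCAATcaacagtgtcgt

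The response element sat 57 bases before the first start of *Meg3* and 46 before the internal start of *Gas5*, and it was in neither the promoter of the first *Gas5* start nor that of the second *Meg3* start. Counting both strands, 1.79% of 32851 promoters hold it. The letters TATAAA stood 25 bases before the *Meg3* start, and again on the other strand 29 bases before it, where both overlap, and 13.6% of promoters hold them. The box CCAAT occurred 188, 148 and 67 bases before the *Kcnq1ot1* start, and 3.37% of promoters hold it 3 or more times. A C followed by at least 4 pyrimidines at the start itself, as at the internal start of *Gas5* and the start of *Miat*, is found in 2.51%. It is the kind of start known from mRNAs of ribosomal proteins.

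*Mirg* and *Rian* also carry microRNAs. GENCODE places 14 miRNA genes inside *Mirg*, 4 inside *Rian* and 2 inside *Meg3*, and RefSeq gives 35 mature sequences for them with 34 distinct seeds. The shared seed, GGUUGCC, belongs to a pair of RNAs from *Mirg*, shown here with the seed (bases 2 to 8) in capitals beside miR-541-5p, since *Mir453*, *Mir541* and *Mir496a* had the most counts in *Mirg*.
mmu-miR-453: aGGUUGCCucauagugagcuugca
mmu-miR-496a-5p: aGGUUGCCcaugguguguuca
mmu-miR-541-5p: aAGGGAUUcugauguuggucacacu

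Per base of exon, the 9 RNAs differed by orders of magnitude, and not all were abundant. *Malat1* had a median of 359.6 RPKM (CPM per kilobase of exon) over the 16 libraries, and its mean stood at the 99.7 percentile of 16492 tested genes with a length. *Rian* (median 25.6 RPKM), *Meg3* (24.9), *Gas5* (17.8) and *Miat* (12.2) stood between the 79.8 and 90 percentile. *Mirg* (4.43) and *Snhg11* (2.52) were in the middle of the distribution. *Neat1* at 0.650 RPKM and *Kcnq1ot1* at 0.464 RPKM stood at the 26.2 and 18 percentile, so the name abundant did not hold for them per length, although the 93092 bases of *Kcnq1ot1* gave it 16163 counts in all. In control neurons, with all annotated exons as the length, the order was *Malat1*, *Meg3*, *Rian*, *Gas5*, *Miat*, *Mirg*, *Snhg11*, *Neat1*, *Kcnq1ot1*. Within that order the ranges of *Meg3* and *Rian* overlapped, as did those of *Gas5* and *Miat*, of *Mirg* and *Snhg11*, and of *Neat1* and *Kcnq1ot1*. The range of *Meg3* (15.9 to 35.2 RPKM) also overlapped those of *Gas5* (16.9 to 19.1 RPKM) and *Miat* (11.6 to 21.1 RPKM). With the longest transcript as the length *Rian* (61.2 RPKM) instead stood above *Meg3* (35.8 RPKM), and the rest kept this order. With apoE3 lipoproteins *Rian* (24.8 ± 7.73 RPKM, SD, n = 4) ranked above *Meg3* (21.1 ± 12 RPKM), again with overlapping ranges.

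**Figure D1:**
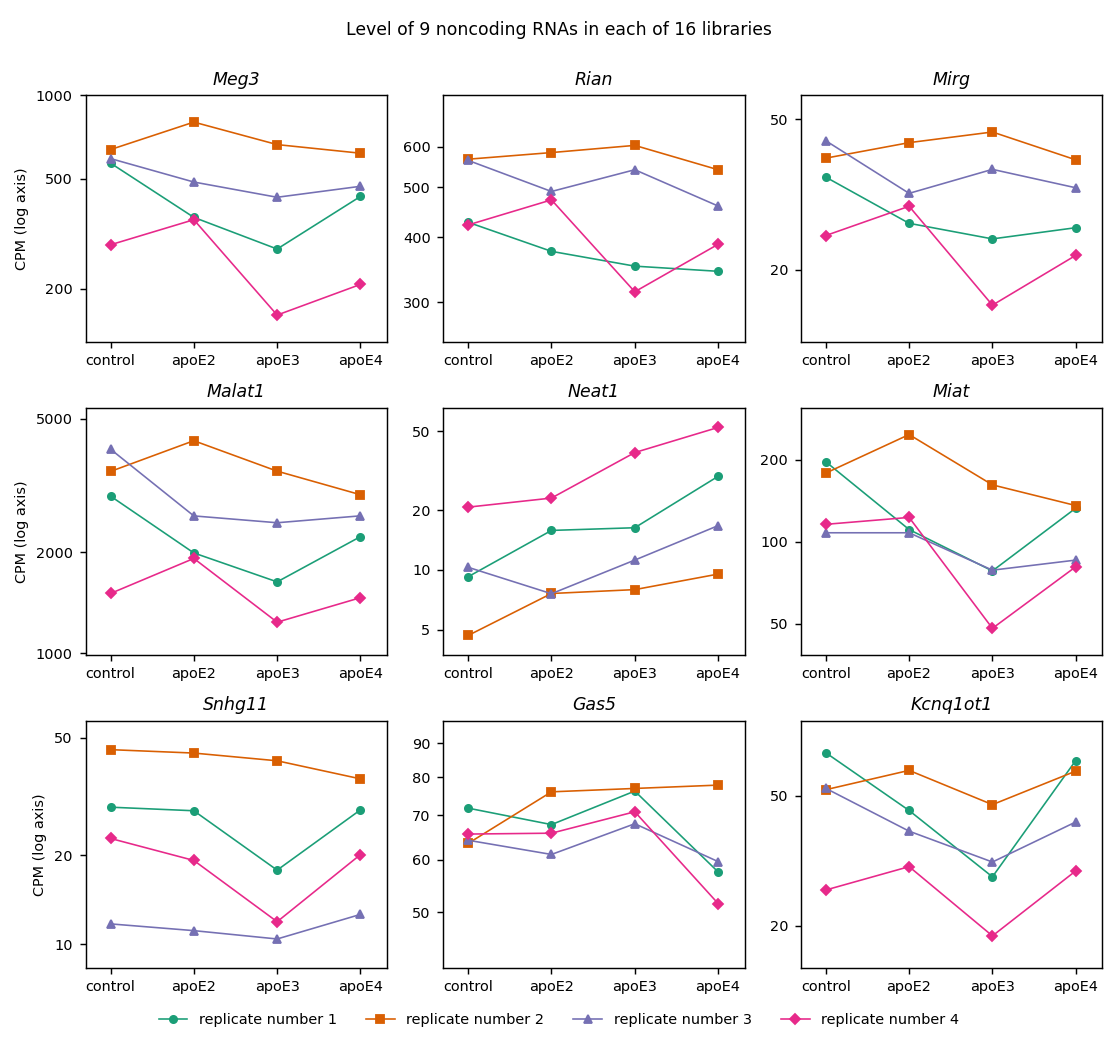
Level of each RNA in each library, in CPM on a log axis, by treatment group. Points of 1 colour and shape joined by a line share a replicate number. The lines of different numbers never cross for Meg3 and Snhg11 and cross in the other 7 panels, most for Gas5, where 1 of 6 pairs of numbers keeps its order. Neat1 runs highest in number 4 where Meg3, Malat1 and Kcnq1ot1 run lowest, and Gas5 spans only 1.51-fold.

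For 8 of the 9 RNAs more of the variation lay between replicate numbers than between treatment groups, and for *Gas5* slightly less. The share of the sum of squares of log2 CPM that lay between numbers was 88.7% for *Snhg11*, 77.1% for *Rian*, 75.7% for *Malat1*, 75.3% for *Meg3*, 72.2% for *Mirg* and 71.7% for *Neat1*, against a median of 56.1% over all tested genes. It was 61.9% for *Kcnq1ot1*, 49.5% for *Miat* and 30.7% for *Gas5*. Between treatment groups lay 6.36% (*Snhg11*) to 32.5% (*Gas5*), with a median of 14.4% over all genes. In an edgeR fit with both terms, 8 of the 9 differed between numbers at an adjusted p under 0.05, beside 63.8% of all genes tested, and *Gas5* did not (adjusted p = 0.101).

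The summed astrocyte markers were lower in libraries numbered 2 (1153 to 1532 CPM) than in all others (1808 to 5584 CPM), and the summed neuron markers were lowest in those numbered 4 (3642 to 5579 CPM), whose upper end overlaps number 1 (5252 to 6244 CPM). *Meg3* averaged 679.9 ± 82.6 CPM in libraries numbered 2 and 252 ± 86.2 CPM in those numbered 4 (SD, n = 4 each), while *Neat1* averaged 7.44 ± 2.02 and 33.7 ± 14.8 CPM. Thus *Neat1* ran opposite to *Meg3* across numbers, and their levels did not overlap between numbers 2 and 4. *Snhg11* had an order of its own, with 42.0 ± 4.15 CPM in number 2 and 11.4 ± 0.928 CPM in number 3. The library of apoE3 numbered 4 was the lowest of the 16 for *Meg3*, *Rian*, *Mirg*, *Malat1*, *Miat* and *Kcnq1ot1*, and it also had the fewest neuron markers and the most astrocyte markers. The part of glial RNA in these differences was not tested.

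**Figure D2:**
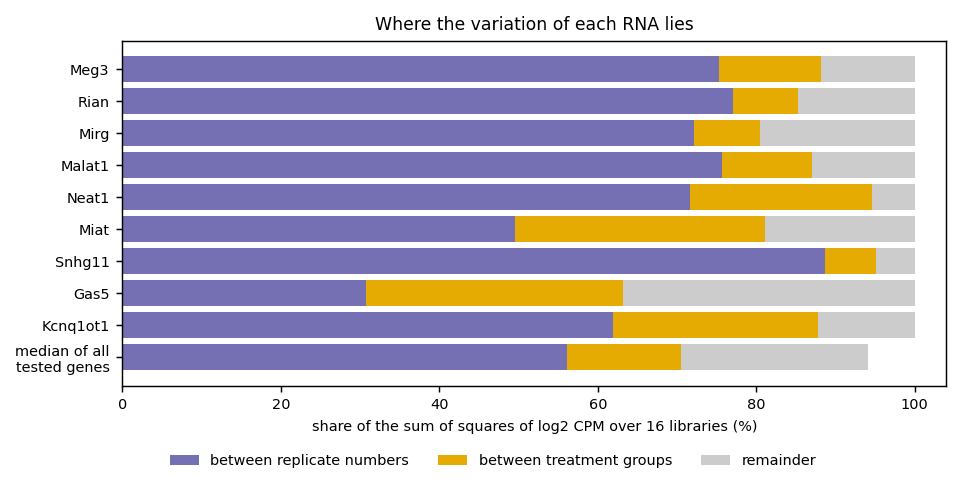
Share of the variation of log2 CPM over the 16 libraries that lies between replicate numbers, between treatment groups and in neither, in percent. The last bar gives the median of each share over 17038 genes, and these 3 medians need not sum to the whole. Snhg11 has the longest share between numbers (88.7%) and Gas5 the shortest (30.7%).

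In the comparison of groups without regard to the numbers, no member was called in any of the 6 comparisons. The edgeR quasi-likelihood test with Benjamini-Hochberg adjustment called 0 of 9 at an adjusted p under 0.05, and so did DESeq2, which had 1 at an unadjusted p under 0.05, *Neat1* with apoE4. DESeq2 called 0.170%, 0.352%, 0.534%, 0.405%, 0.957% and 0.0529% of all genes in the 6 comparisons. With edgeR the share of all genes tested was 0% called for apoE2 against control, 0.00587% for apoE3, 0.194% for apoE4, 0.147% for apoE4 against apoE3, 0.252% for apoE4 against apoE2, 0% for apoE3 against apoE2 and 0.229% for any difference. At an unadjusted p under 0.05 edgeR had 1 of the 9, *Gas5* in apoE4 against apoE3 (log2 fold change -0.24 ± 0.11, SE, adjusted p = 1.00), and 0 in the other 5 comparisons. Of all genes 2.79%, 6.43%, 3.30%, 4.70%, 5.34% and 2.28% passed that threshold in the 6 comparisons in that order, which is also the order of the DESeq2 shares. The intervals were wide, for *Neat1* from -0.05 to 2.58 on the log2 scale with apoE4 and for *Miat* from -1.49 to 0.07 with apoE3, so changes up to that size lie within them.

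Libraries with the same number deviated together at r = 0.620 to 0.831 in numbers 2, 3 and 4. In number 1 r was 0.362 to 0.552, which libraries that share neither number nor group also reached (up to 0.569). Each comparison was also fitted with the number as a term (replicate block), which compares libraries within a number. With that term *Neat1* was higher with apoE4 lipoproteins, and 5 of 9 RNAs changed with apoE3: *Miat*, *Kcnq1ot1*, *Meg3* and *Snhg11* were lower and *Neat1* was higher. None of the 9 passed with apoE2 (0 also at an unadjusted p under 0.05 by edgeR, and 0 by DESeq2, with 1.73% of all genes called by edgeR). For apoE3 the background was 3.73% of all genes called lower and 7.95% called higher, and for apoE4 3.18% called higher. DESeq2 with the block called 4.61%, 15.8% and 6.12% of all genes with apoE2, apoE3 and apoE4, and 4.67%, 8.07% and 4.72% for apoE4 against apoE3, apoE4 against apoE2 and apoE3 against apoE2. At an unadjusted p under 0.05 the blocked edgeR fit had 13.3%, 27.5% and 16.6% of all genes with apoE2, apoE3 and apoE4. Over the 4 groups together, *Neat1*, *Miat* and *Kcnq1ot1* differed (adjusted p = 0.00219, 0.0355 and 0.0275), beside 10.7% of all genes.

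**Figure D3:**
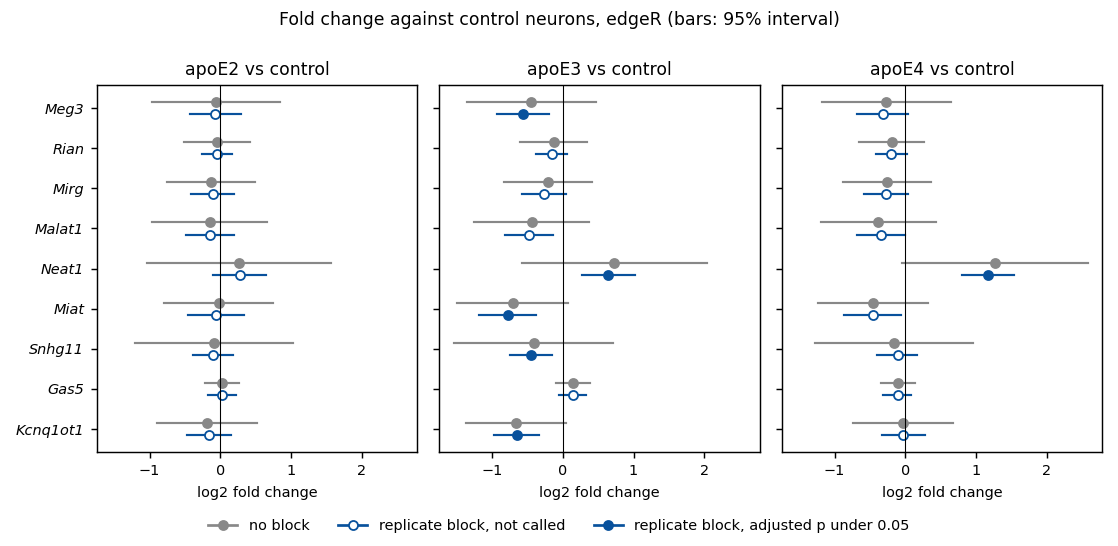
Log2 fold change of each RNA against control neurons with its 95% interval, from edgeR without (grey) and with (blue) the replicate block, n = 4 libraries a group. Filled blue points have an adjusted p under 0.05. Neat1 with apoE4 is at 1.27 without the block and 1.17 with it, and the interval narrows from -0.05 to 2.58 to 0.80 to 1.54.

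*Neat1*, the scaffold of paraspeckles, had 9.23, 4.67, 10.3 and 20.7 CPM in control libraries 1 to 4. With apoE4 lipoproteins it had 29.6, 9.52, 16.7 and 52.2 CPM in the same order. Each apoE4 library was thus above the control library of its number, by 1.62 to 3.19-fold, although the groups as a whole overlap. With apoE2 it had 15.8, 7.60, 7.58 and 23.0 CPM, and with apoE3 16.3, 7.95, 11.2 and 39.0 CPM. Within every number apoE4 was highest and apoE3 was above apoE2. In the blocked edgeR fit the log2 fold change with apoE4 was 1.17 ± 0.17 (SE, adjusted p = 0.00129). It was called without each of the 16 libraries in turn (log2 fold change 1.04 to 1.39, adjusted p 5.60e-04 to 0.0102) and without each whole replicate number (adjusted p 0.00422 to 0.0372). With apoE3 the blocked fold change was 0.64 ± 0.18 (adjusted p = 0.0292), and it was called in 11 of 16 fits that left out a library, with an adjusted p of up to 0.131 in the others, which lacked control 1, 2 or 4 or apoE3 1 or 4. It was also lost without replicate number 1, 2 or 4 in every group (0 higher calls in each) and was called without number 3. Between isoforms *Neat1* was higher with apoE4 than with apoE2 (0.90 ± 0.17, blocked adjusted p = 0.00773, 2.61% of all genes called higher), and without replicate number 4 the adjusted p was 0.0613. The difference between apoE4 and apoE3 (0.53 ± 0.17, interval 0.17 to 0.89) was not called (blocked adjusted p = 0.142).

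Most markers of astrocytes moved with *Neat1* against control. In the blocked fit 4 of 8 were higher with apoE4 and 7 of 8 with apoE3, among them *Gfap*, the intermediate filament of astrocytes, at log2 fold changes of 0.98 ± 0.18 and 1.40 ± 0.19 (edgeR blocked adjusted p = 0.00778 and 5.43e-04). *Slc1a2* was called with neither isoform (blocked 0.12 ± 0.12 with apoE4 and -0.24 ± 0.12 with apoE3). Summed, the 8 astrocyte markers ranged from 1286 to 2735 CPM in control, 1153 to 2641 with apoE2, 1532 to 5584 with apoE3 and 1432 to 4669 with apoE4, and no marker was at 0 in any group. Within numbers the orders differed: the sum was lower with apoE4 than with apoE3 in 3 of 4 numbers (3088 against 3792, 1432 against 1532 and 4669 against 5584 CPM), where *Neat1* was higher with apoE4 in 4 of 4. *Gfap* weighed most in that sum, with 1326 ± 899 CPM with apoE4 and 1833 ± 1299 with apoE3 (SD, n = 4). *Slc1a2* went the other way, with 934 ± 310.4 and 719.8 ± 212 CPM. Among the others *Sox9* was slightly higher with apoE4, *Aqp4* and *Slc1a3* were about level, and *Aldh1l1*, *Gja1* and *S100b* were lower. Without the block none of the 8 was called against control by edgeR or DESeq2, and none had an unadjusted p under 0.05. Of the other lists of cell types, the blocked edgeR fit called 3 of 8 oligodendrocyte lineage, 1 of 8 mural, fibroblast and endothelial, 1 of 8 dividing cell and 0 of 8 microglia markers with apoE3, and 1, 1, 0 and 0 with apoE4, all higher. At an unadjusted p under 0.05, 5 dividing cell and 0 microglia markers passed with apoE4 and 3 microglia markers with apoE3, and DESeq2 with the block called 0 in these 3 cases. Dividing cell markers had 3 of 8 at an unadjusted p under 0.05 with apoE3. Their sum was 11.7, 7.57, 12.3 and 19.7 CPM in control libraries 1 to 4 and 36.7, 41.5, 27.8 and 39.8 CPM with apoE3. With apoE2 it was 21.7 to 30.1 CPM and with apoE4 12.9 to 35.4 CPM. The ranges with apoE2 and apoE3 lay wholly above control and that with apoE4 overlapped it, and the sum was higher than control in 4 of 4 pairs with each isoform. The marker called with apoE3 was *Top2a*, which set much of the order of the sum. It had 4.16 ± 2.43 CPM in control, 14.7 ± 5.24 with apoE2, 23.5 ± 9.12 with apoE3 and 6.64 ± 2.65 with apoE4 (SD, n = 4). *Mki67*, the other plentiful marker, had 5.24 ± 1.93, 5.14 ± 2.03, 7.72 ± 4.05 and 8.41 ± 3.75 CPM in the same order. The part of dividing cells in the *Neat1* difference and in the apoE3 differences was not tested. How far glial RNA takes part in the *Neat1* difference was not tested.

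**Figure D4:**
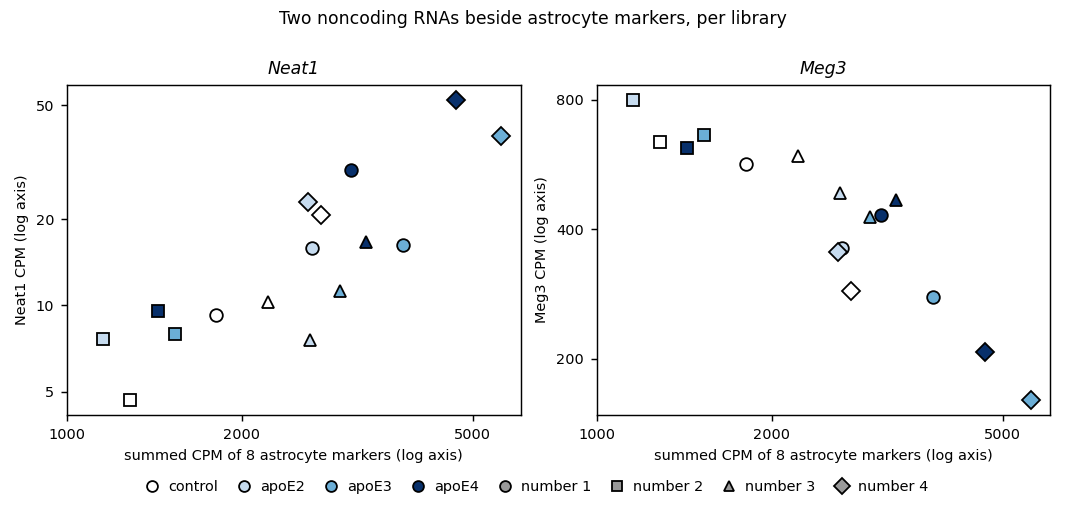
Neat1 (left) and Meg3 (right) in CPM against the summed CPM of 8 astrocyte markers, both on log axes, for each of 16 libraries. Shading gives the treatment and shape the replicate number. Neat1 runs up and Meg3 down with the markers, and libraries numbered 4 with apoE3 and apoE4 lie at the far right (5584 and 4669 CPM).

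Of 15 paraspeckle protein genes none was called against control by edgeR with or without the block. In the blocked fit 3 had an unadjusted p under 0.05 with apoE3 and 3 with apoE4, and DESeq2 with the block called 1 and 0. The medians of their blocked log2 fold changes were -0.02, -0.01 and -0.09 with apoE2, apoE3 and apoE4, against 0.01, 0.02 and -0.00 over all genes. *Nono* had 142 ± 11.4 CPM in control and 135 ± 15.6 with apoE4, and *Sfpq* 117 ± 12.3 and 109 ± 4.0 (SD, n = 4). Both encode proteins that *Neat1* binds in the body's core. In apoE4 against apoE2 the blocked edgeR fit called 1 of the 15, *Rbm14*, which encodes an RNA-binding protein of paraspeckles, higher (19.6 ± 2.33 against 15.5 ± 1.22 CPM, blocked 0.33 ± 0.09, adjusted p = 0.0493). It had 16.2 ± 1.47 CPM in control (apoE4 against control 0.27 ± 0.09, blocked adjusted p = 0.129).

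*Malat1* was the most plentiful of the 9, with 1239 to 4306 CPM. It had 2944, 3487, 4063 and 1509 CPM in control libraries 1 to 4 and 1634, 3494, 2452 and 1239 CPM with apoE3. It was lower with apoE3 in numbers 1, 3 and 4 and level in number 2. The log2 fold change was -0.44 ± 0.38 (SE, edgeR adjusted p = 0.812) without and -0.48 ± 0.16 (adjusted p = 0.0668) with the block, and DESeq2 with the block called it (adjusted p = 0.0213). With apoE4 it was lower in 4 of 4 pairs, by 0.633 to 0.971-fold, with a blocked adjusted p of 0.290. Their ratio spanned a wide range, with 72.8 to 747 *Malat1* counts for each *Neat1* count in control and 28.1 to 312 with apoE4. Of 16 genes of nuclear speckle and splicing proteins edgeR called 0 against control in either fit. In the blocked fit 2 had an unadjusted p under 0.05 with apoE3 and 6 with apoE4, and DESeq2 with the block called 1 and 0.

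*Miat* was lower with apoE3 lipoproteins in every pair. It had 197, 179, 108 and 116 CPM in control libraries 1 to 4 and 78.2, 162, 78.7 and 48.1 CPM with apoE3, or 0.398 to 0.907 of the control. The larger differences were in numbers 1 and 4, and the groups overlap. The log2 fold change was -0.71 ± 0.36 (SE, edgeR adjusted p = 0.788) without and -0.78 ± 0.19 (adjusted p = 0.0163) with the block. That call was lost without control 1 or 4 or apoE3 1 or 4, at an adjusted p of up to 0.0852. With apoE2 it had 111, 248, 108 and 123 CPM, and with apoE4 133, 136, 85.7 and 81.0 CPM. The latter was below control in 4 of 4 pairs (0.679 to 0.792-fold) but was not called (blocked -0.46 ± 0.19, adjusted p = 0.227). Between apoE3 and apoE2 the blocked difference was -0.72 ± 0.19 (adjusted p = 0.0760), where DESeq2 with the block called it (adjusted p = 0.0143) and edgeR called none of the 9, beside 1.31% of all genes.

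Of 4 splicing factors known to bind *Miat*, only *Qk*, which is strongly expressed in glia, was called (blocked 0.59 ± 0.16, adjusted p = 0.0289 with apoE3, 153 ± 50.1 CPM in control and 248 ± 128 with apoE3). *Sf1*, which reads the ACTAAC repeats shown above, had 64.3 ± 3.83 CPM in control and 62.8 ± 2.37 with apoE3. Exons of *Miat* overlap the opposite-strand gene *Gm26953* over 24.3% of their length, and without knowing whether strand was used in counting, reads of the overlap cannot be assigned.

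*Kcnq1ot1*, an unspliced RNA that silences neighbours on its own chromosome, had 67.6, 52.1, 52.6 and 25.7 CPM in control libraries 1 to 4. With apoE3 it had 28.2, 46.9, 31.3 and 18.6 CPM. It was lower in 4 of 4 pairs, most in number 1 (0.418-fold) and least in number 2 (0.902-fold). The log2 fold change was -0.66 ± 0.33 (SE, edgeR adjusted p = 0.785) without and -0.65 ± 0.15 (adjusted p = 0.0110) with the block, and the call was lost without control 1 or apoE3 1 (adjusted p up to 0.0578). With apoE2 the values were 45, 59.7, 38.9 and 30.3 CPM, and with apoE4 64.0, 59.4, 41.5 and 29.4 CPM. Against control the blocked log2 fold change with apoE4 was -0.03 ± 0.15 (interval -0.33 to 0.28). With apoE3 it was also below apoE2 in 4 of 4 pairs (0.616 to 0.805-fold), where edgeR with the block did not call it (-0.50 ± 0.15, adjusted p = 0.111) and DESeq2 with the block did (adjusted p = 0.0496). Neurons with apoE4 had more of it than those with apoE3 in 4 of 4 pairs, by 1.26 to 2.27-fold (blocked 0.63 ± 0.15, adjusted p = 0.0447, 1.07% of all genes called higher). That call held in 6 of 16 fits without a library, with an adjusted p of up to 0.197 (lost without control 3, apoE2 2 or 3, apoE3 1, 3 or 4, or any apoE4 library), and in 0 of 4 without a replicate number (adjusted p 0.0515 to 0.237).

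Some genes that *Kcnq1ot1* is known to silence had few counts. *Kcnq1* had 12 to 29 counts in a group of 4 libraries, *Cdkn1c* 25 to 30, *Phlda2* 0 to 3 and *Slc22a18* 42 to 57. Of these *Slc22a18* was tested, with a blocked log2 fold change of 0.50 ± 0.41 for apoE3 (adjusted p = 0.454). Of 7 tested protein genes of the domain, 2 were called in the blocked fit for apoE3 and for apoE2, higher in each. They were *Cd81*, which encodes a tetraspanin (299.6 ± 73.4 CPM in control, 468 ± 189 with apoE3, blocked 0.59 ± 0.12, adjusted p = 0.00634), and *Ascl2*, which encodes a transcription factor (0.215 ± 0.157 and 1.58 ± 0.838 CPM). Both are known to be imprinted in placenta under the control of *Kcnq1ot1*. *Kcnq1* lies on the other strand over all of *Kcnq1ot1*, so unspliced *Kcnq1* RNA would be counted with it if strand was not used. Of the exon bases of *Meg3*, 6.79% lie over exons of *Gm26906*, and of those of *Malat1*, 6.49% lie over exons of *Gm37376*, each on the opposite strand. As for *Miat*, reads of these overlaps cannot be assigned without knowing whether strand was used.

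*Meg3*, the first RNA of the maternal cluster, had 569, 637, 591 and 288 CPM in control libraries 1 to 4 and 278, 664, 428 and 160.3 CPM with apoE3. It was lower in 3 of 4 pairs and 1.04-fold higher in number 2. The log2 fold change was -0.45 ± 0.43 (SE, edgeR adjusted p = 0.816) without and -0.57 ± 0.17 (adjusted p = 0.0434) with the block, and the call held in 7 of 16 fits without a library (adjusted p up to 0.186, lost without control 1, 3 or 4, apoE2 2, apoE3 1, 3 or 4, or apoE4 2 or 3). With apoE2 it had 362, 801, 486 and 355 CPM, and with apoE4 431, 618, 469 and 207 CPM. The latter was below control in 4 of 4 pairs (0.719 to 0.971-fold, blocked adjusted p = 0.356).

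*Rian* and *Mirg*, which lie downstream on the same strand, changed less. *Rian* ranged from 314 to 603 CPM and *Mirg* from 16.1 to 46.2 CPM over all libraries. Their blocked log2 fold changes with apoE3 were -0.16 ± 0.10 and -0.27 ± 0.14 (SE, edgeR adjusted p = 0.324 and 0.247), and neither was called in any comparison. *Mirg* had 5.13 to 6.21% of the counts of *Rian* in libraries numbered 4 and 6.47 to 8.2% in all others, whereas *Meg3* ran from 0.510 to 1.37 counts for each of *Rian*. After the mean of each replicate number was subtracted, *Rian* and *Mirg* had r = 0.96 over the 16 libraries and *Meg3* had r = 0.95 with *Miat*, 0.87 with *Mirg* and 0.79 with *Rian*, where without subtraction it had 0.82, 0.95 and 0.81.

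The small RNAs carried by the cluster had few counts. The 14 miRNA genes in *Mirg* had 1038 counts in all, led by *Mir453* (321), *Mir541* (239) and *Mir496a* (226). *Rian* had 1044 counts over 13 snoRNA genes and 244 over 4 miRNA genes, led by *Gm23600* (600), *Gm24564* (203) and *DQ267102* (134). These leading genes lie outside the annotated exons of their hosts. Whether these counts are unspliced host RNA or small RNAs was not tested. *Meg3* had 0 counts on its 2 miRNA genes, both of which overlap its exons. Of 9 tested protein genes of the domain edgeR called 0 against control in either fit, and so did DESeq2, with 2 at an unadjusted p under 0.05 for apoE2 and 0 for apoE3 and apoE4 in the blocked edgeR fit. *Rtl1*, the retrotransposon-like gene on the other strand, had 10.7 ± 3.78 CPM in control and 9.84 ± 5.63 with apoE3. *Dlk1* had 16 to 29 and *Dio3* 12 to 40 counts in a group of 4 libraries, and *Dlk1* was not tested.

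**Figure D5:**
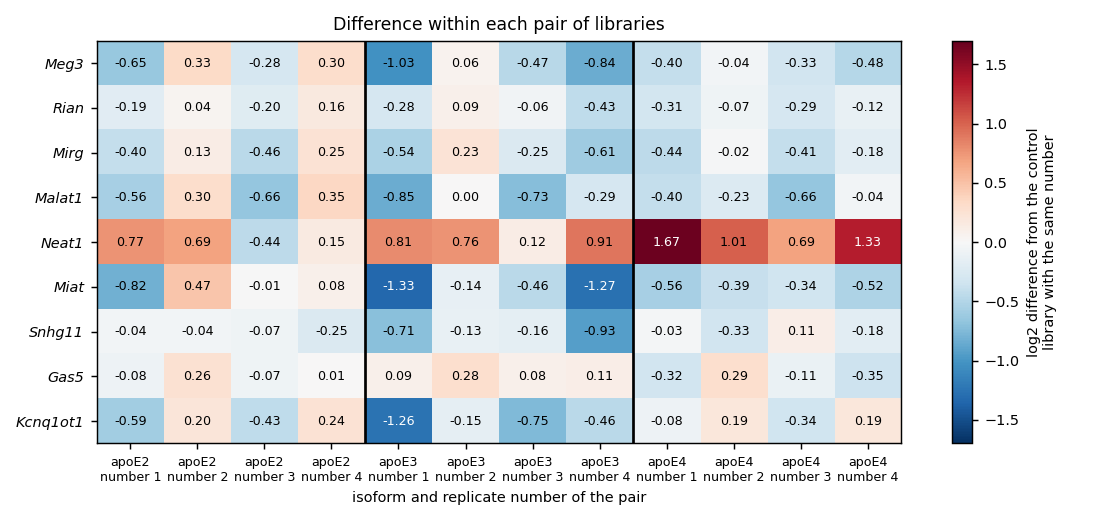
Log2 difference of each RNA between each treated library and its control of the same number. Red is higher and blue lower than control. Neat1 is red in all 4 apoE4 pairs (0.69 to 1.67), and Miat and Kcnq1ot1 are blue in all 4 apoE3 pairs, most strongly in number 1 (-1.33 and -1.26).

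*Snhg11*, which is annotated as protein coding in GENCODE M21 although it is known as a snoRNA host, had 29.1, 45.6, 11.7 and 22.8 CPM in control libraries 1 to 4. With apoE3 it had 17.8, 41.8, 10.4 and 11.9 CPM, lower in 4 of 4 pairs (0.525 to 0.916-fold). The log2 fold change was -0.41 ± 0.53 (SE, edgeR adjusted p = 0.857) without and -0.45 ± 0.14 (adjusted p = 0.0433) with the block, and the call held in 7 of 16 fits without a library (adjusted p up to 0.168, lost without any control library, apoE2 2, apoE3 1 or 4, or apoE4 1 or 3). With apoE4 the values were 28.5, 36.3, 12.6 and 20.1 CPM, with a blocked difference from control of -0.11 ± 0.13 (interval -0.40 to 0.17). Its 2 snoRNA genes had 19 counts together.

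*Gas5* was the steadiest, between 51.5 and 77.8 CPM. It had 71.8, 63.5, 64.2 and 65.6 CPM in control libraries 1 to 4, 76.2, 76.9, 68.0 and 70.9 CPM with apoE3 and 57.5, 77.8, 59.6 and 51.5 CPM with apoE4. With apoE3 it was above control in 4 of 4 pairs, by 1.06 to 1.21-fold (blocked 0.14 ± 0.09, edgeR adjusted p = 0.351). Against apoE3, apoE4 was lower in 3 of 4 pairs (blocked -0.25 ± 0.09, adjusted p = 0.187). Without apoE4 replicate 2, its highest apoE4 library, the blocked fit called it lower (-0.35, edgeR adjusted p = 0.0480, 0.620% of all genes called lower), while the adjusted p was up to 0.471 without another library, and the log2 change without the block was then -0.38. All 10 entries typed as snoRNA inside *Gas5*, 2 of them under the name *Snord80*, overlap exons of some annotated transcript and had 0 counts. Of 18 tested snoRNA host genes 1 was called against control in the blocked edgeR fit, *Snhg20*, lower with apoE3 (-0.52 ± 0.14, adjusted p = 0.0310). Its level was low, with 5.08 ± 0.668 CPM in control and 3.53 ± 0.566 with apoE3. In that fit 3 host genes had an unadjusted p under 0.05 with apoE3 and 2 with apoE4, and DESeq2 with the block called 3 and 1. *Upf1*, the helicase of nonsense-mediated decay, had 64.2 ± 3.93 CPM in control and 56.9 ± 4.73 with apoE3 (blocked adjusted p = 0.0994), and of 12 decay factors edgeR called 0 against control, with 2 at an unadjusted p under 0.05 for apoE3 and 0 for apoE4 in the blocked fit, where DESeq2 called 2 and 0. *Nr3c1*, the glucocorticoid receptor that *Gas5* RNA can bind, had 56.4 ± 4.36 and 63.9 ± 10.5 CPM (blocked adjusted p = 0.296), and of 8 genes of its list 1 was called with apoE3, *Klf9*, a hormone-induced transcription factor, lower (-0.40 ± 0.12, adjusted p = 0.0383).

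The calls for apoE3 depended most, though not only, on the libraries numbered 1. Among these the control differed from the treated libraries in depth (20438089 counts against 14087723 to 15984860), in the share of HTSeq's rows for reads on no single gene (61.8% against 71.6 to 73.7%) and in that of *Lars2* (5.95% against 12.2 to 15%). In number 1 apoE2 was also below control for *Miat* (0.565-fold), *Meg3* (0.637-fold) and *Kcnq1ot1* (0.665-fold). The part of these library differences in the calls was not tested. Without control 1, without apoE3 1, or without number 1 in every group, 0 of 9 were called for apoE3 in the blocked edgeR fit, with 6, 6 and 5 at an unadjusted p under 0.05. Those fits called 4.29%, 5.17% and 2.41% of all genes, and 19.2%, 21.3% and 17.5% passed the unadjusted threshold. Without number 2 in every group 5 were called (11.3% of all genes), *Meg3*, *Malat1*, *Miat*, *Snhg11* and *Kcnq1ot1*, all lower and without *Neat1*, and without number 3 or number 4 it was 1 each, *Neat1* (4.62% of all genes) and *Kcnq1ot1* (8.54%). Among 26 other tested long noncoding RNAs 4 were lower and 2 higher with apoE3 in the blocked fit, while it called 0 with apoE2 and apoE4 (6 and 1 at an unadjusted p under 0.05, and 2 and 1 called by DESeq2 with the block). Of 11 structured small noncoding RNAs it called 1, *Vaultrc5*, a vault RNA, higher with apoE4 (2.05 ± 0.39, adjusted p = 0.00819). Of the 6 long RNAs, the 4 with the smallest p were *Mir124a-1hg*, host of the neuronal miR-124 (-0.94 ± 0.17, adjusted p = 0.00368), *Dleu2* (-0.79 ± 0.18, adjusted p = 0.0127), *Rmst* (1.08 ± 0.27, adjusted p = 0.0174) and *H19* (1.17 ± 0.33, adjusted p = 0.0324). The median log2 fold change with apoE3 in that fit was -0.45 for the 9 RNAs, -0.13 for the 26 and 0.02 for all genes. Of 13 neuron markers, 8 had an unadjusted p under 0.05 with apoE3 in the blocked edgeR fit, and DESeq2 with the block called 7. Those named by the smallest p in the blocked edgeR fit were *Gad1* and *Snap25*, lower, and *Slc17a6* and *Tubb3*, higher. *Gad1* marks inhibitory and *Slc17a6* excitatory neurons. The sum of the 13 was lower with apoE3 than in control in numbers 1 (5252 against 6244 CPM) and 4 (3642 against 5101 CPM), where *Miat*, *Meg3* and *Snhg11* were furthest below control. The sum differed little in numbers 2 (8039 against 7803 CPM) and 3 (7923 against 7940.2 CPM), where *Kcnq1ot1* was 0.596-fold and *Malat1* 0.603-fold of control in number 3, lower than in number 4 (0.727 and 0.821-fold). The part of the share of neurons in the apoE3 differences was not tested.

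Genes most like each RNA over the 16 libraries were ranked by Pearson's r of log2 CPM, a description in which libraries share depth, culture and number. *Meg3* was nearest to *Magi2* (r = 0.98), *Parp6* (0.98) and *Mir124a-1hg* (0.97), and *Malat1* to *Meg3* (0.96), *Mirg* and *Rufy2* (0.95 each). For *Rian* they were *Pak3*, *Thg1l* and *Kifap3* (0.96 each) and for *Mirg* *Ttc3* and *Cacnb2* (0.96 each) and *Meg3* (0.95). *Neat1* was nearest to *Nhlrc2* (0.96), *Tmem106a* and *Sft2d2* (0.95 each), and had r = -0.85 with *Meg3*. *Kcnq1ot1* was nearest to *Nktr* (0.96), *5830432E09Rik* and *Leng8* (0.94 each), *Miat* to *Car11* and *Gm26803* (0.93 each) and *Acvr2a* (0.92), and *Snhg11* to *Clcn2* and *Pcdh9* (0.94 each) and *Pvt1* (0.93). *Gas5* had the weakest likeness, to *Lrrfip1* (0.85), *Bola2* and *RP23-384C18.12* (0.82 each).

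With the mean of each replicate number subtracted, other genes led. *Gas5* was then nearest to *Rpl27a*, a ribosomal protein gene (r = 0.94), *Mien1* and *Fbxo9* (0.92 each), and *Malat1* to *Snrnp70*, a component of the U1 splicing particle (0.92), *Itga8* (0.90) and *Gm26945* (0.89). *Neat1* went with *Cenpf*, a protein of dividing cells (0.94), *Rassf8* (0.94) and *Micall1* (0.93). *Kcnq1ot1* had *5330406M23Rik* and *Nktr* (0.92 each) and *Cep170* (0.91), *Miat* had *Meg3* (0.95), *Rfx3* and *Zc3h12b* (0.92 each), and *Snhg11* had *Gm43317* (0.94), *Zp2* and *Unc5d* (0.92 each). *Meg3* stayed nearest to *Magi2* (0.95), followed by *Miat* (0.95) and *Mir124a-1hg* (0.93). *Rian* was followed by *Mirg* (0.96), *Thg1l* (0.93) and *Mmp16* (0.92), and *Mirg* by *Rian* (0.96), *Sntg1* and *Gspt2* (0.89 each).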

How the data were processed

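The deposited files hold raw counts per gene symbol, which the authors made by aligning reads to mm10 with STAR and counting with HTSeq. The annotation and the strand setting are not given in the sources used here. The 5 HTSeq rows that name no gene (no-feature 8.90 to 23.5%) were not part of library totals or fits. The 9 genes, the gene lists and the tests were chosen with earlier results of these data known. Counts were fitted in R 4.3.3 with edgeR 4.0.16 (TMM, filterByExpr with a minimum count of 10, minimum total of 15 and proportion of 0.7, all 16 libraries, quasi-likelihood test) and adjusted by Benjamini-Hochberg over all tested genes in each comparison. Alternatives were other scalings and filters, DESeq2 1.42.0, exact two-sided permutation tests of 4 against 4 libraries (smallest p 0.0286), the 2 groups alone, each library left out, and the replicate block. Blocked fits without a library or a whole number were added after the data were seen. Deviations from group means of same-numbered libraries correlated at r = 0.362 to 0.831 (number 1 0.362 to 0.552), against -0.736 to 0.569 for libraries that share neither number nor group. Every same-numbered pair exceeded 0.1, and by that rule the numbers of the labels were taken as pairs. Libraries that share neither number nor group can exceed 0.1 too, so the rule cannot show pairing. The r of number 1 lies within the range of such libraries. Log2 CPM used a prior count of 2. Lengths, positions and transcripts are from GENCODE M21, promoters and miRNAs from RefSeq GRCm38.p6. Named were the 9 genes, their listed partners whatever their values, at most 4 called genes per other list, the 3 most correlated genes in each of 2 ways, and the 3 carried small RNAs with most counts. The fit was also run on simulated counts with an effect of the replicate number built in. Such counts cannot show whether the numbers of these libraries are pairs.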

Additional observations from a re-analysis of the deposited data

Results flagged for a closer look

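*Miat* in apoE2 replicate 2 had 248 CPM, where the other 3 apoE2 libraries had 108 to 123 CPM, so its gap to the nearest of them took 0.888 of the group's range, above Dixon's 95% critical value for 4 samples. It was the only value so set apart among 36 groups of 4 libraries, which is no more than chance gives at that level. Its cause was not tested.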

How the results depend on the processing

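The counts of called RNAs were 0 in every comparison under the RLE scaling, the scaling without features over 1% of a library, no filter, the stricter filter, DESeq2, the exact test, the 2 groups alone and without each library (0 to 0). Only the replicate block changed them. With edgeR it gave 5 for apoE3, 1 for apoE4, 1 for apoE4 against apoE3, 1 for apoE4 against apoE2 and 3 for any difference. DESeq2 with the block gave 6, 1, 1 and 1 in the same comparisons and 2 for apoE3 against apoE2. Blocked fits without a library gave 0 to 6 for apoE3, 1 to 1 for apoE4, 0 to 1 for apoE4 against apoE3 (*Kcnq1ot1*, or *Gas5* without apoE4 replicate 2), 1 to 1 for apoE4 against apoE2, 0 to 1 for apoE3 against apoE2 and 1 to 5 for any difference. Without a whole replicate number they gave 0 to 5, 1 to 1, 0 to 0, 0 to 1, 0 to 0 and 1 to 3. No log2 fold change that the block called changed sign in any of the 36 fits without a library or a number, with and without the block. Signs did change for other differences, whose values without the block and with all libraries lay between -0.32 and 0.46, and whose lowest and highest values over those fits follow. With apoE2 against control they were -0.39 and 0.13 for *Meg3*, -0.16 and 0.06 for *Rian*, -0.49 and 0.03 for *Malat1*, -0.13 and 0.75 for *Neat1*, -0.41 and 0.18 for *Miat*, -0.51 and 0.28 for *Snhg11* and -0.07 and 0.07 for *Gas5*. With apoE3 against control they were -0.47 and 0.00 for *Mirg* and -0.30 and 0.01 for *Rian*, and with apoE4 -0.42 and 0.20 for *Snhg11* and -0.24 and 0.15 for *Kcnq1ot1*. For apoE4 against apoE3 they were -0.09 and 0.58 for *Meg3*, -0.21 and 0.11 for *Rian*, -0.27 and 0.22 for *Mirg*, -0.14 and 0.38 for *Malat1* and -0.01 and 0.87 for *Snhg11*. For apoE4 against apoE2 they were -0.44 and 0.11 for *Meg3*, -0.29 and 0.04 for *Mirg*, -0.37 and 0.10 for *Malat1* and -0.34 and 0.34 for *Snhg11*. For apoE3 against apoE2 they were -0.26 and 0.06 for *Rian*, -0.35 and 0.14 for *Mirg*, -0.60 and 0.04 for *Malat1*, -0.19 and 0.84 for *Neat1* (0.46 with all libraries) and -0.94 and 0.09 for *Snhg11*. *Mirg* in apoE4 against apoE3 (-0.05) turned to 0.03 as a difference of mean log2 CPM and to 0.01 with DESeq2 and the block. With the longest transcript as length, *Rian*, *Mirg* and *Gas5* in control rose to 61.2, 9.35 and 25.9 RPKM, which puts *Rian* above *Meg3*. Depth limits *Neat1* most, with 116 to 1026 counts a library.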
